A study of Homo sapiens with 54 samples.

Results

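The expression of 10 membrane transporter genes was followed in colorectal cancer (CRC) cell lines treated with 5-fluorouracil (5-FU). These genes were 8 drug efflux pumps of the ATP-binding cassette (ABC) family, ABCB1, ABCC1, ABCC2, ABCC3, ABCC4, ABCC5, ABCC11 and ABCG2, and 2 equilibrative nucleoside transporters, SLC29A1 and SLC29A2. They were chosen by gene symbol, and all 10 were found among the 59368 genes of the tables. RNA-sequencing had been performed on 54 libraries from DLD-1, HCT-116 and HT-29, 3 established human CRC lines. Each line was used as its 5-FU-sensitive parent and as a resistant derivative, which the study had selected during months of growth in rising doses of 5-FU and then kept in the drug. Both states of every line received 10 µM uracil, the natural nucleobase used as control, 10 µM 5-FU for 24 h, or 5-FU followed by X-ray irradiation (5-FU+IR). This gave 18 conditions with 3 libraries each. Only 1 derivative per line was available, so that resistance and the history of that derivative cannot be told apart.

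ABC efflux pumps use ATP to carry drugs, drug conjugates and metabolites out of the cell, and several of them stand in the apical membrane of the intestinal epithelium. Equilibrative nucleoside transporters let nucleosides and many of their drug analogues pass in both directions along their gradient. Inside cells, 5-FU is converted to nucleosides and nucleotides, so that both groups of transporters can meet the drug or its metabolites.

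Levels are given in TPM, a share of all transcripts in a library that is corrected for transcript length and library size, as mean ± SD with n = 3. Comparisons rest on a fit to the estimated read counts of all genes with edgeR's quasi-likelihood test, as log2 fold change ± SE with the Benjamini-Hochberg adjusted p. A gene is said to have risen, fallen or changed at an adjusted p of at most 0.01, and it is called when it also changed by at least 2-fold. The fit rescales libraries for their RNA composition and TPM do not, so that a small difference in TPM need not recur as a fold change. All 10 genes passed the filter on low counts in every fit. Total estimated counts ranged from 38957142 to 218518344 per library, the deepest being replicate 2 of sensitive DLD-1 under uracil.

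The libraries labelled resistant HT-29 did not carry the markers of their line. Of 64 genes that marked sensitive HCT-116 among the sensitive parents, 62 reached 1 TPM in the mean of the uracil libraries labelled resistant HT-29, as did 62 in resistant HCT-116. Of 12 genes that marked sensitive HT-29, 0 did so in the libraries labelled resistant HT-29, whereas resistant DLD-1 kept 19 of its 20 markers. Every comparison that rests on the libraries labelled resistant HT-29 is therefore given apart and set beside HCT-116. All 5 epithelial markers reached 1 TPM in each line and state. CDX1, a transcription factor of the intestinal epithelium, stayed at or below 3 counts in every HCT-116 library and in every library labelled resistant HT-29, and the T cell marker CD3E did so in all 54 libraries. Of the 5 intestinal markers, VIL1 and CDH17 also stayed under 1 TPM in these HCT-116 and HT-29 libraries, whereas CDX2 and KRT20 exceeded it in each. CDX2 held 8.04 to 14.6 TPM in HCT-116 and 9.62 to 12.3 TPM in the libraries labelled resistant HT-29, against 0.106 to 0.425 TPM in sensitive HT-29. Summed fibroblast markers reached at most 31.4 TPM and endothelial markers at most 5.43 TPM in any library, and summed leukocyte markers at most 8.76 TPM outside sensitive HT-29, where they held 1426 to 1688 TPM, nearly all from LYZ. The part of other cell types in the results was not tested.

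Promoter sequences are shown for 4 genes whose levels or start sites differed between lines or with 5-FU. Each is the 250 bases before an annotated transcription start, from RefSeq on GRCh38.p14, written 5′ to 3′ on the strand of the gene. Capitals mark CG dinucleotides, the sites of DNA methylation, which was not measured here. Entries were matched for 7 of the 10 genes.
ABCB1, start 87600884, chr7:87600885-87601134, minus strand: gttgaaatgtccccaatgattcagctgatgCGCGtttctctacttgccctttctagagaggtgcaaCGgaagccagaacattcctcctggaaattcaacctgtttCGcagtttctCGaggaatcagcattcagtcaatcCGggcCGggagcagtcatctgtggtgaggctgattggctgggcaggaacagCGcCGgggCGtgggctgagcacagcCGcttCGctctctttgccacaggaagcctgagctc
ABCB1, start 87713295, chr7:87713296-87713545, minus strand: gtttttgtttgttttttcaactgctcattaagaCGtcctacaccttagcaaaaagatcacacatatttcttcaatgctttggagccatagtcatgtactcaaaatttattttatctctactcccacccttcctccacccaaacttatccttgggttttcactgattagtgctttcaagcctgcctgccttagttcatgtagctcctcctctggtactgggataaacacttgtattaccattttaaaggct
ABCC2, start 99782640, chr10:99782390-99782639, plus strand: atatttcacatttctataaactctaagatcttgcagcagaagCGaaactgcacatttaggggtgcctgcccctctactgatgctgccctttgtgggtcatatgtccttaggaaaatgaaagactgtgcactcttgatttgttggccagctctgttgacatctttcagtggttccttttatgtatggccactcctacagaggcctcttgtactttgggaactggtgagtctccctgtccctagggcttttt
ABCG2, start 88158639, chr4:88158640-88158889, minus strand: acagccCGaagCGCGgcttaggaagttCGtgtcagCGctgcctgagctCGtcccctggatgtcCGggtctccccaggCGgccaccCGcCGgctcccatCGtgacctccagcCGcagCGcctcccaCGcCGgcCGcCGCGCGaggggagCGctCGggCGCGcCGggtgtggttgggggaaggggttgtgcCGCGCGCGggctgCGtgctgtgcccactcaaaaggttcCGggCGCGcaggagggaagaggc
SLC29A1, start 44219615, chr6:44219365-44219614, plus strand: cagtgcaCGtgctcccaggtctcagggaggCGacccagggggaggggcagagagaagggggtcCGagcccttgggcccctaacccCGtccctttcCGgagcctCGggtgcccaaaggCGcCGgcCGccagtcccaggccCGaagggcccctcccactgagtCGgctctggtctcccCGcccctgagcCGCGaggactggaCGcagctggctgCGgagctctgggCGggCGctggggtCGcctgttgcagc
SLC29A1, start 44223595, chr6:44223345-44223594, plus strand: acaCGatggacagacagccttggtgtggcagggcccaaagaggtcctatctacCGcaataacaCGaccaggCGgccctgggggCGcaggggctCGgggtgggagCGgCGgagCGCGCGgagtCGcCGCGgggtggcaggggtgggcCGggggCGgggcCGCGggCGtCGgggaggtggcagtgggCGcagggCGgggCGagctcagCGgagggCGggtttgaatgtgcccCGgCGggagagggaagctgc

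These windows ranged from CG-poor to CG-rich. The ABCC2 window and the ABCB1 window at start 87713295 each held 1 CG, and 6.06% of 35116 promoters of this length held fewer. The ABCB1 window at start 87600884 held 12, near the median of 11 over all promoters. The ABCG2 window printed here, beside its leading transcript, held 32, with 90.5% of promoters holding fewer. The 4 other ABCG2 windows of the RefSeq table, not printed, held 29, 27, 5 and 2, and the SLC29A1 windows held 19 and 27. Both SLC29A1 windows held a GC box (GGGCGG on either strand), as did 42.6% of all promoters. The ABCB1 window at start 87600884 held a CCAAT box (CCAAT on either strand), found in 32.0%, and the ABCC2 window held TATAAA, found in 10.7%. A match of letters was not tested as a binding site.

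The sensitive parents each had a different leading set of transporters under uracil. DLD-1 was highest in ABCB1, also known as P-glycoprotein, the classical multidrug efflux pump. HCT-116 stood apart by ABCC2 (MRP2), an apical pump for glutathione and glucuronide conjugates. HT-29 led with ABCC3 (MRP3), a basolateral pump for glucuronides and bile acids, and with ABCG2 (breast cancer resistance protein), an apical pump with broad drug specificity.

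**Figure D1:**
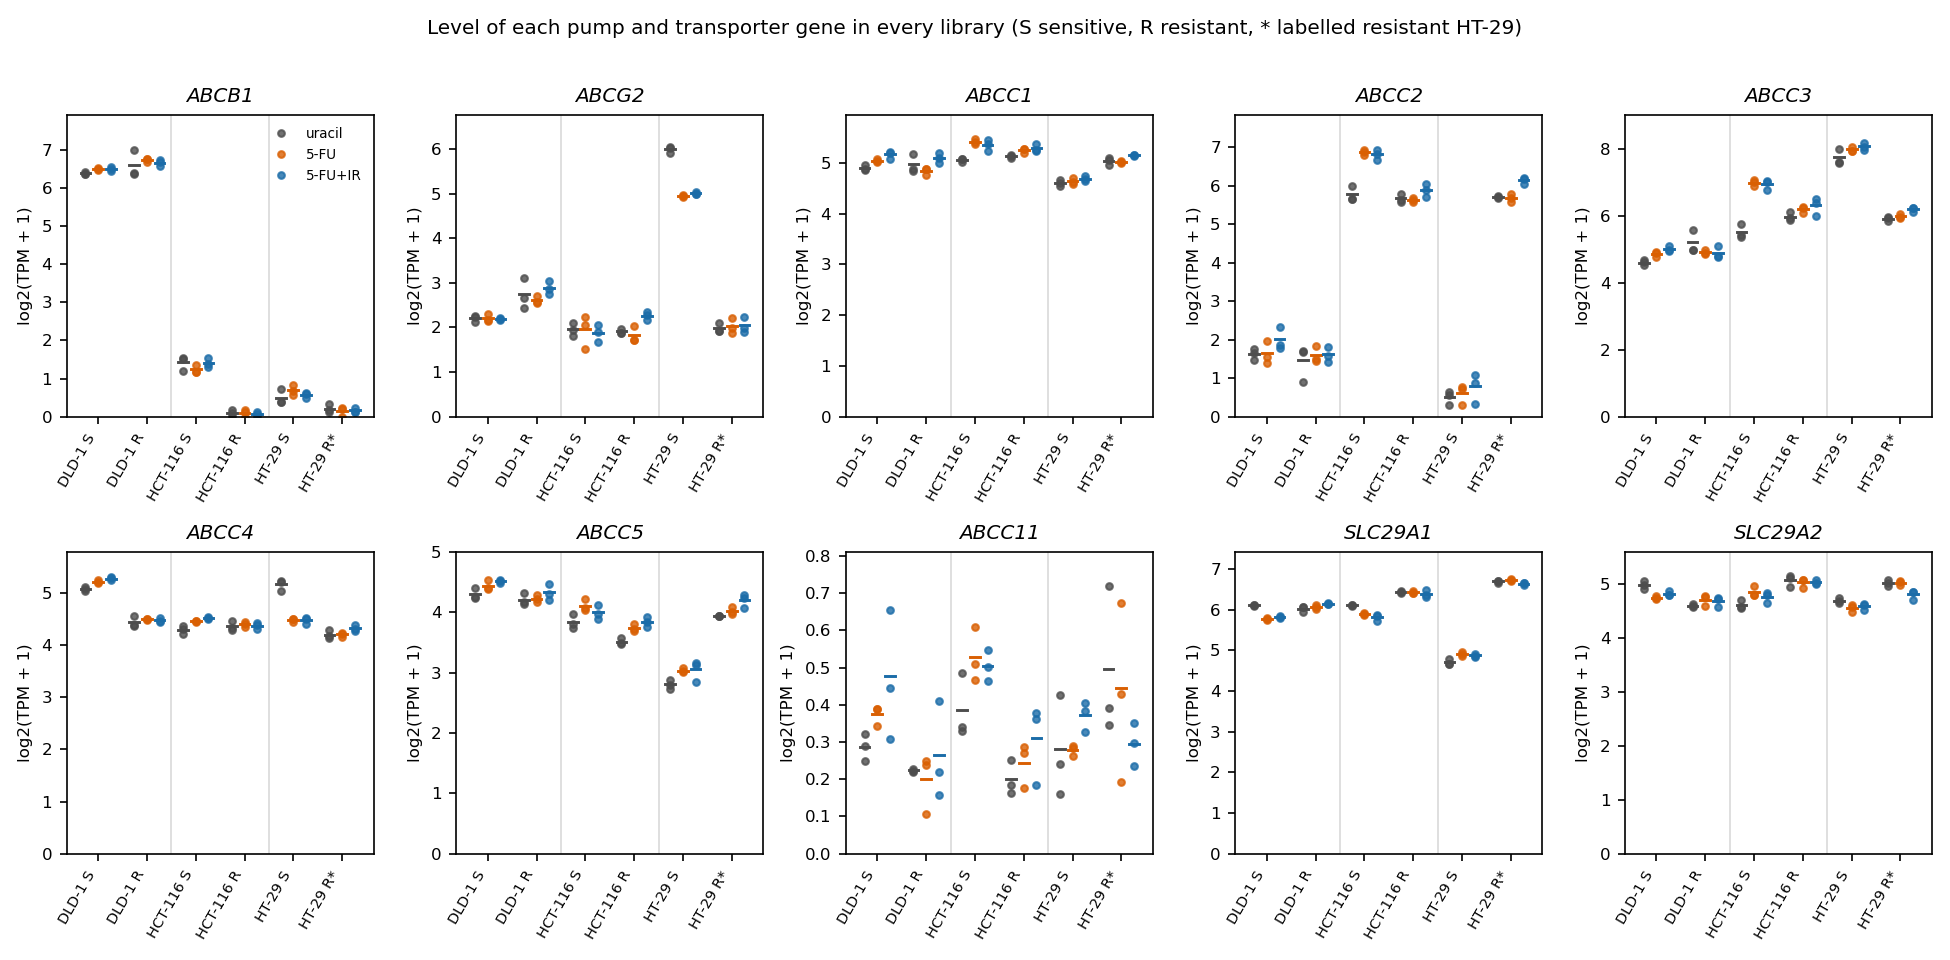
Level of each of the 10 transporter genes as log2(TPM + 1) in all 54 libraries, with a panel per gene, the line and state (S sensitive, R resistant) on the horizontal axis, a colour per treatment, points for libraries and short bars for the mean of 3. ABCB1 reached 82.8 TPM in sensitive DLD-1 and 1.68 in sensitive HCT-116 under uracil, and ABCG2 62.9 TPM in sensitive HT-29; the asterisk marks the libraries labelled resistant HT-29.

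ABCB1 spans chr7:87503017-87713323 on the minus strand of GRCh38. Under uracil it measured 85.0, 82.1 and 81.2 TPM in sensitive DLD-1, 1.85, 1.31 and 1.89 TPM in sensitive HCT-116 and 0.642, 0.297 and 0.306 TPM in sensitive HT-29. The 3 lines did not overlap, and the DLD-1 mean exceeded that of 87.0% of the genes at or above 1 TPM in that condition. The fitted log2 difference was 5.76 ± 0.15, adjusted p = 2.91e-19, between DLD-1 and HCT-116, and 8.89 ± 0.20, adjusted p = 3.03e-20, between DLD-1 and HT-29.

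ABCC2 spans chr10:99782640-99852594 on the plus strand and was highest in another line. It measured 49.7, 62.3 and 49.0 TPM in sensitive HCT-116, against 1.77, 2.37 and 2.14 TPM in DLD-1 and 0.545, 0.227 and 0.486 TPM in HT-29. Every HCT-116 library stood above every library of the other parents, and DLD-1 above HT-29. The fitted log2 differences from HCT-116 were -6.10 ± 0.076, adjusted p = 1.95e-24, for DLD-1 and -7.79 ± 0.094, adjusted p = 1.24e-24, for HT-29.

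HT-29 stood out in a pair of pumps. ABCG2, at chr4:88090150-88231628 on the minus strand, held 64.6, 64.9 and 59.4 TPM in sensitive HT-29, 3.72, 3.80 and 3.35 TPM in DLD-1 and 3.26, 2.52 and 2.83 TPM in HCT-116. HT-29 differed from HCT-116 by 4.71 ± 0.11, adjusted p = 5.06e-20, on the log2 scale, and its libraries lay far above the rest. ABCC3, at chr17:50634777-50692253 on the plus strand, measured 194, 190.1 and 252 TPM in HT-29, and its mean lay above that of 95.3% of the genes at or above 1 TPM. HCT-116 followed with 40.1, 52.6 and 41.5 TPM and DLD-1 with 23.5, 21.8 and 24.3 TPM, with no overlap between the lines (HT-29 against HCT-116, 2.88 ± 0.11, adjusted p = 2.90e-16). These are levels over all ABCC3 transcripts. The share of coding transcripts, given below, was larger in DLD-1 than in HCT-116, so that their order need not hold for coding transcripts.

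The remaining pumps differed less. ABCC4 (MRP4), a pump of cyclic nucleotides and nucleotide analogues, was at 34.9 ± 2.5 TPM in HT-29, 32.8 ± 0.87 TPM in DLD-1 and 18.7 ± 1.0 TPM in HCT-116. ABCC5 (MRP5), which carries cyclic nucleotides and fluoropyrimidine monophosphates, was lowest in HT-29, at 5.99 ± 0.36 TPM, with 13.3 ± 1.2 in HCT-116 and 18.7 ± 1.3 in DLD-1. ABCC1 (MRP1), a pump of glutathione conjugates, was at 23.4 ± 1.0, 29.0 ± 1.1 and 32.2 ± 0.68 TPM in HT-29, DLD-1 and HCT-116. ABCC11 (MRP8), which also carries cyclic nucleotides and fluoropyrimidine monophosphates, was under 1 TPM in all 54 libraries, with 8 to 106 counts, and it had the lowest mean TPM of the 10 genes in each sensitive parent. Its range overlapped those of ABCB1 and ABCC2 in HT-29.

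Both nucleoside transporters were expressed in all lines. SLC29A1 (ENT1), at chr6:44219553-44234142 on the plus strand, measured 66.9, 68.9 and 68.2 TPM in sensitive DLD-1 and 68.2, 66.9 and 68.8 TPM in HCT-116, which overlapped. HT-29 was lower, with 26.8, 24.6 and 24.2 TPM, and differed from HCT-116 by -1.29 ± 0.053, adjusted p = 9.14e-16, on the log2 scale. SLC29A2 (ENT2), which also carries nucleobases, had 24.8 ± 0.71 TPM in HT-29, 23.5 ± 1.3 in HCT-116 and 30.6 ± 1.7 in DLD-1. Over all 18 conditions its highest mean was 1.45 times its lowest, the smallest range of the 10 genes, followed by ABCC1 with 1.78 times.

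Between sensitive parents under uracil, 1 of the 10 genes was called higher and 2 lower in DLD-1 than in HCT-116, where 31.2% of all genes were called. HT-29 against HCT-116 had 2 higher and 5 lower, where 38.6% of all genes were called, and DLD-1 against HT-29 had 4 higher and 2 lower, where 31.8% were. The median log2 difference of the 10 genes was 0.13, -0.69 and 0.34 in these comparisons, and that of all genes 0.01, -0.02 and 0.04. Each parent enters a pair of these comparisons. With transcript length as an offset, a setting added after the data were seen, ABCC11 lost its call for HT-29 against HCT-116, going from -1.001 to -0.42 (adjusted p = 0.347), ABCC5 went there from -1.30 to -0.98, and ABCC3 for DLD-1 against HCT-116 from -1.25 to -0.93, both under 2-fold. ABCC4 for HT-29 against HCT-116 passed 2-fold in that setting, from 0.82 without it. ABCC11 was also no longer called in 3 of 6 fits that left out a library, without HCT-116 replicates 2 or 3 or HT-29 replicate 2 (-0.86 without the last).

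The next comparison asked what 5-FU did in sensitive cells, and each parent changed a different set. In HCT-116, the conjugate pumps ABCC3 and ABCC2 rose most. In HT-29, ABCG2 and ABCC4 fell, and ABCB1 counts rose from a very low level. In DLD-1, SLC29A1 and SLC29A2 were the only genes of the 10 that changed, where 34.7% of all genes did, and both fell.

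**Figure D2:**
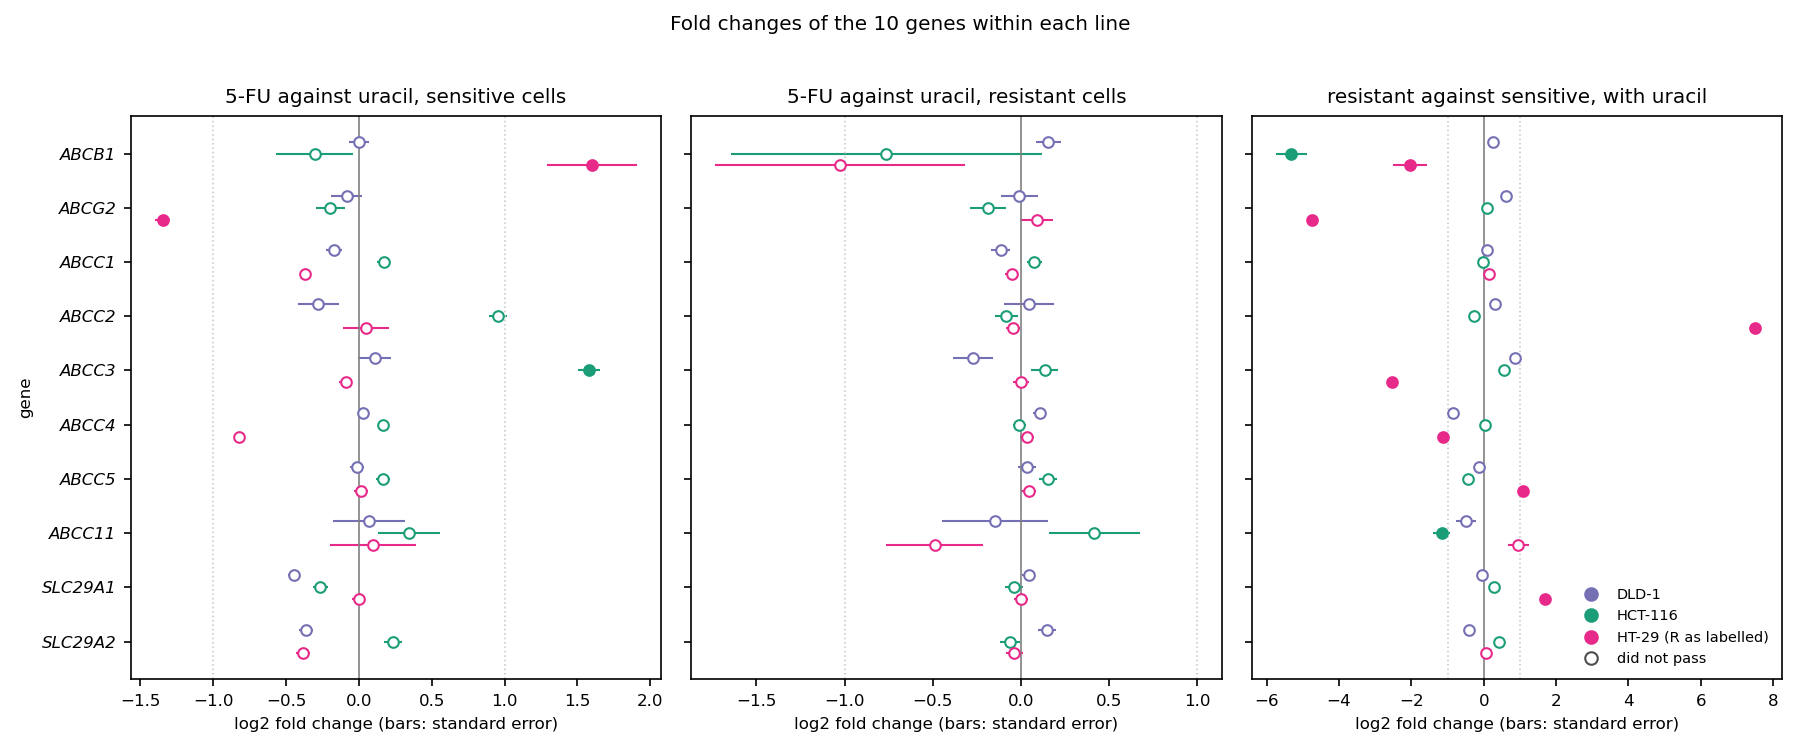
Fitted log2 fold change of each of the 10 transporter genes, with its standard error, for 5-FU against uracil in sensitive cells (left) and resistant cells (middle) and for resistant against sensitive cells under uracil (right). Colours are lines and filled points passed the adjusted p of 0.01 and the 2-fold threshold; in sensitive cells ABCC3 was at 1.58 in HCT-116 and ABCG2 at -1.35 in HT-29, and no point in the middle panel is filled.

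In sensitive HCT-116, ABCC3 measured 40.1, 52.6 and 41.5 TPM under uracil and 132, 117 and 127 TPM after 5-FU. The ranges did not overlap, and the log2 fold change was 1.58 ± 0.076, adjusted p = 1.03e-13. ABCC2 went from 49.7, 62.3 and 49.0 TPM to 119.8, 111 and 117 TPM, also without overlap, with a log2 fold change of 0.95 ± 0.063, adjusted p = 2.41e-11, just under the 2-fold threshold. ABCC2 passed that threshold under library size alone (1.04), with transcript length as an offset (1.09) and without sensitive uracil replicate 2 (1.01). Smaller rises were fitted for ABCC1 (0.17), ABCC4 (0.17), ABCC5 (0.17) and SLC29A2 (0.23). None of these 4 kept an adjusted p under 0.01 in every fit that left out a library. ABCC5 missed it in 6 of 6 such fits (up to 0.0528), ABCC1 in 4 of 6 (up to 0.0268), SLC29A2 in 3 of 6 (up to 0.0286) and ABCC4 in 2 of 6 (up to 0.0145). SLC29A1 fell, from 68.2, 66.9 and 68.8 TPM to 58.2, 59.2 and 57.6 TPM (-0.27 ± 0.050, adjusted p = 1.13e-04). Of the 10 genes, 7 changed, where 42% of all genes did, and 1 was called, where 8.15% were called.

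In sensitive HT-29, ABCG2 stood at 64.6, 64.9 and 59.4 TPM under uracil and at 30.5, 29.9 and 29.5 TPM after 5-FU. The ranges lay far apart, and the log2 fold change was -1.35 ± 0.053, adjusted p = 3.78e-17. Its leading transcript, ABCG2-201, which begins within 100 bases of start 88158639, beside its CG-rich window, went from 44.03 ± 2.8 to 20.5 ± 0.87 TPM. ABCC4 also fell, from 36.0, 36.7 and 32.1 TPM to 21.8, 20.8 and 21.6 TPM (-0.82 ± 0.038, adjusted p = 8.86e-16), again without overlap. SLC29A2 fell by 0.38 on the log2 scale (adjusted p = 1.15e-07) and ABCC1 by 0.37 (adjusted p = 2.46e-09), although mean ABCC1 TPM were 23.4 and 23.9 on the other scale.

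ABCB1 in HT-29 depended on the scale. Its counts were 32, 18 and 9 under uracil and 93, 102 and 74 after 5-FU, without overlap, and the log2 fold change was 1.60 ± 0.31, adjusted p = 7.71e-05. Its TPM were 0.642, 0.297 and 0.306 under uracil and 0.585, 0.478 and 0.787 after 5-FU, and overlapped. Protein-coding transcripts of ABCB1 took 27.8 ± 13% of its TPM under uracil and 72.5 ± 25% after 5-FU. With transcript length as an offset the log2 fold change was 0.27 (adjusted p = 0.616), so that the call held for counts and was lost per length. Among the 10 genes, 1 was called higher and 1 lower in sensitive HT-29, where 12.2% of all genes were called.

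In sensitive DLD-1, SLC29A1 measured 66.9, 68.9 and 68.2 TPM under uracil and 54.0, 55.0 and 53.2 TPM after 5-FU, with a log2 fold change of -0.45 ± 0.035, adjusted p = 1.58e-09. SLC29A2 went from 28.9, 32.2 and 30.6 TPM to 26.3, 25.7 and 25.2 TPM (-0.36 ± 0.048, adjusted p = 2.44e-06). Neither gene's ranges overlapped between the treatments. ABCB1, the leading pump of this line, had a log2 fold change of 0.00 ± 0.070, adjusted p = 0.992, with 90.1, 91.5 and 88.3 TPM after 5-FU. By edgeR's quasi-likelihood test 0 of the 10 genes were called, where 4.02% of all genes were. Of the 10, 3 had an unadjusted p under 0.05, where 50.7% of all genes did, and DESeq2 also called 0.

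The 5-FU response was compared between parents in a fit added after the data were seen. For ABCC3, the response of HCT-116 exceeded that of DLD-1 by 1.49 ± 0.072, adjusted p = 2.97e-14, and HT-29 minus HCT-116 was -1.62 ± 0.068, adjusted p = 9.84e-16. For ABCG2, HT-29 minus DLD-1 was -1.21 ± 0.10, adjusted p = 6.02e-10, and HT-29 minus HCT-116 was -1.11 ± 0.11, adjusted p = 9.42e-09. The conjugate pump response of HCT-116 and the ABCG2 response of HT-29 thus each differed from those of both other parents. By the adjusted p alone, 5 of the 10 responses differed between HCT-116 and DLD-1, where 28% of all genes did. Of these, SLC29A1 (0.20 ± 0.060, adjusted p = 0.00961) fell short in 16 of 18 alternatives, 11 of 12 fits that left out a library among them (adjusted p up to 0.0379). Between HT-29 and DLD-1 4 differed, where 30.2% did, and between HT-29 and HCT-116 8, where 38% did. These comparisons share the treated and control libraries of each line.

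Transcript estimates were read for the genes that moved with 5-FU, as a description. In sensitive HCT-116, transcripts from the ABCC2 start at 99782640, beside its CG-poor window, had 43.9 ± 3.9 TPM under uracil and 86.3 ± 3.1 TPM after 5-FU. Protein-coding transcripts of ABCC3 had 5.55 ± 0.19 and 14.5 ± 1.6 TPM there, which was 12.6 ± 2.0% and 11.6 ± 0.60% of the gene. In HT-29 the ABCC3 share of coding transcripts was 15.7 ± 2.4% under uracil, and in DLD-1 32.8 ± 2.4%. Prominent in the rest were transcripts annotated as retained intron, nonsense-mediated decay or without a defined coding sequence, led in HT-29 by ABCC3-207 with 62.3 ± 5.3 TPM. ABCC3 gene levels therefore do not stand for coding transcripts alone, and the order of HCT-116 above DLD-1 in gene level need not hold for them.

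**Figure D3:**
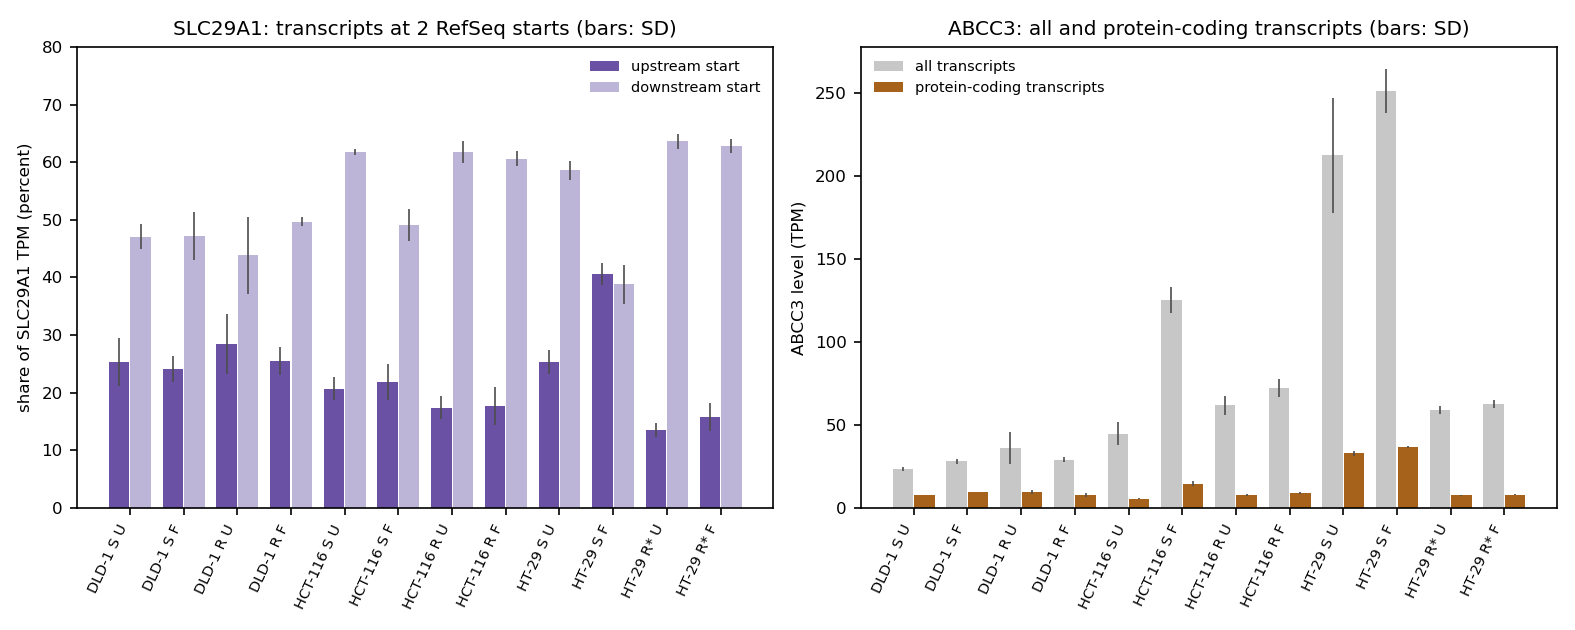
Left, share of SLC29A1 TPM (percent) from transcripts that begin at its upstream start (44219615) and its downstream start (44223595), and right, ABCC3 level (TPM) over all and over protein-coding transcripts, by line, state (S, R) and treatment (U uracil, F 5-FU), as the mean of 3 libraries with SD. The upstream share in sensitive HT-29 was 25.3% under uracil and 40.6% after 5-FU, and coding transcripts were the smaller part of ABCC3 in every bar; the asterisk marks the libraries labelled resistant HT-29.

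SLC29A1 transcripts begin at both printed starts. In sensitive HT-29, those from the upstream start at 44219615 had 6.36 ± 0.46 TPM under uracil and 11.8 ± 0.83 TPM after 5-FU. Those from the downstream start at 44223595 had 14.7 ± 0.43 and 11.3 ± 1.1 TPM. The upstream share of the gene was 25.3 ± 2.1% and then 40.6 ± 1.9%. The whole gene had a log2 fold change of 0.00 ± 0.044, adjusted p = 0.976, by the fit to counts, while its TPM were 25.2 ± 1.4 and then 29.1 ± 0.85. The matched SLC29A1 transcripts differed in sum from the gene's TPM by up to 8.56 TPM, so that these shares are approximate. In HCT-116 the downstream start had 41.98 ± 0.25 and 28.6 ± 1.4 TPM, and the upstream start 14.1 ± 1.4 and 12.7 ± 1.8 TPM. In DLD-1 the upstream share was 25.3 ± 4.2% under uracil and 24.1 ± 2.2% after 5-FU, which overlapped within 1 SD.

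ABCB1 transcripts in DLD-1 also came from both printed starts. Under uracil, the transcript from the start at 87600884 had 31.6 ± 7.1 TPM and the transcripts from the CG-poor window at 87713295 had 31.6 ± 5.3 TPM. After 5-FU they had 25.4 ± 1.3 and 42.1 ± 2.9 TPM. In resistant DLD-1 under uracil they had 43.8 ± 10.2 and 32.4 ± 5.5 TPM. Both starts were thus in use in this line in either state.

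Resistant cells were then compared with their sensitive parent under uracil. ABCB1 was nearly absent from resistant HCT-116, and ABCC11 fell there too. In resistant DLD-1, ABCC3 and ABCG2 rose and ABCC4 and SLC29A2 fell, each by less than 2-fold. ABCC3 rose in both of these lines, while SLC29A2 rose in HCT-116 and fell in DLD-1.

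**Figure D4:**
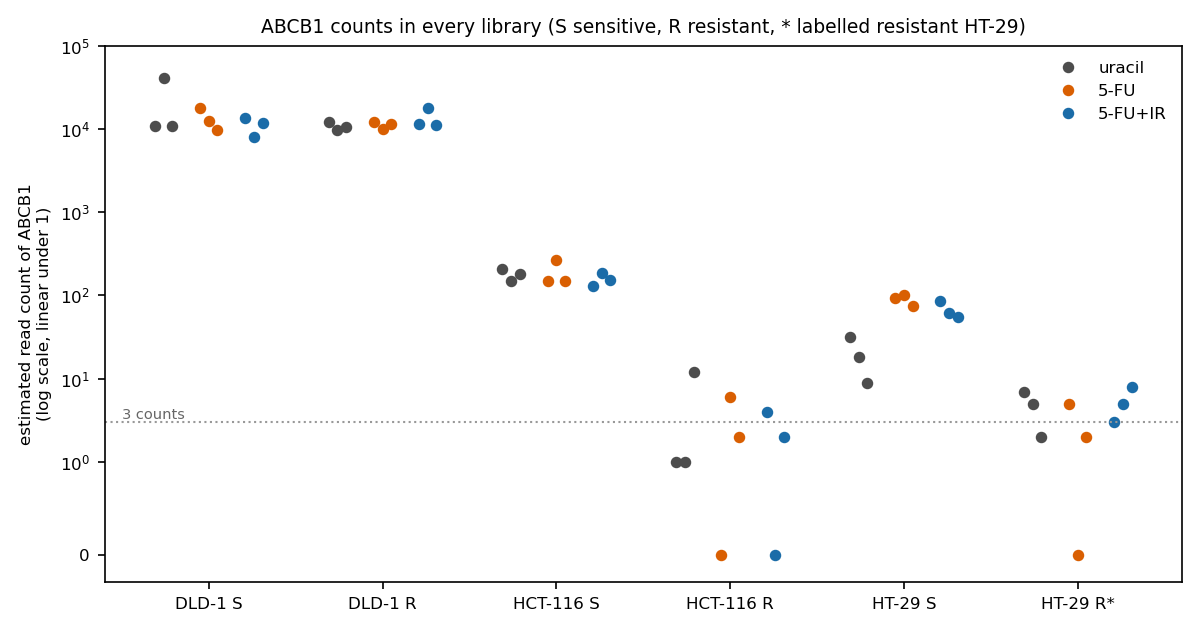
Estimated ABCB1 read counts in each of the 54 libraries by line, state (S, R) and treatment, on a log axis that is linear under 1, with a dotted line at 3 counts. Resistant HCT-116 libraries under uracil had 1, 1 and 12 counts against 208, 150 and 183 in sensitive ones; the asterisk marks the libraries labelled resistant HT-29.

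In HCT-116, ABCB1 had 208, 150 and 183 counts in sensitive cells under uracil, and 1, 1 and 12 counts in resistant cells. The groups did not overlap, and the log2 fold change was -5.32 ± 0.43, adjusted p = 7.89e-10, from -7.45 to -4.75 when each library was left out in turn. Resistant HCT-116 had 0, 6 and 2 counts after 5-FU and 4, 0 and 2 after 5-FU+IR, all below every sensitive library. In bulk RNA, fewer cells that express a gene and less RNA per cell cannot be told apart. ABCC11 had 38, 41 and 44 counts in sensitive and 21, 21 and 16 in resistant cells (-1.17 ± 0.24, adjusted p = 3.66e-04), without overlap but under 1 TPM.

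The other changes in resistant HCT-116 were below 2-fold. ABCC3 was at 56.9, 68.2 and 59.8 TPM, above every sensitive library (0.57 ± 0.076, adjusted p = 1.56e-06). SLC29A1 was at 87.9, 85.5 and 84.0 TPM (0.27 ± 0.050, adjusted p = 8.16e-05) and SLC29A2 at 33.5, 34.4 and 29.7 TPM (0.43 ± 0.060, adjusted p = 2.84e-06), both nucleoside transporters lying above all sensitive libraries. ABCC5 fell to 10.2, 10.1 and 10.9 TPM (-0.42 ± 0.050, adjusted p = 2.43e-07). ABCC2 fell by 0.27 on the log2 scale (adjusted p = 0.00108), although its 48.3, 54.4 and 46.9 TPM overlapped those of sensitive cells. That fall missed the adjusted p of 0.01 without sensitive replicate 2 (-0.18, adjusted p = 0.0236) and without resistant replicate 3, under library size alone and with transcript length as an offset. In all, 7 of the 10 genes changed, where 41% of all genes did, and 2 were called, both lower, where 11% were called.

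In DLD-1, ABCC4 measured 33.8, 32.7 and 32.1 TPM in sensitive and 22.5, 19.9 and 19.6 TPM in resistant cells, without overlap (-0.84 ± 0.035, adjusted p = 1.27e-13). SLC29A2 fell as well, to 23.9, 23.1 and 22.8 TPM (-0.42 ± 0.048, adjusted p = 5.94e-07). Replicate 1 of the resistant cells stood apart over all genes. The chi-square of its counts, divided by the degrees of freedom, was 24.5 and 21.1 against the other replicates, which had 3.33 between them, so that values without it are also given. ABCC3 was at 46.9, 30.3 and 30.3 TPM (0.86 ± 0.11, adjusted p = 2.73e-06, and 0.62 without replicate 1), and ABCG2 at 7.56, 4.41 and 5.28 TPM (0.60 ± 0.11, adjusted p = 1.10e-04, and 0.45 without it). ABCB1 had 126, 82.7 and 81.9 TPM and a log2 fold change of 0.24 ± 0.071, adjusted p = 0.00997, which became 0.09 (adjusted p = 0.0352) without replicate 1 and stayed within the threshold in 2 of the 6 fits that left out a library. By edgeR's quasi-likelihood test 0 of the 10 genes were called, where 5.7% of all genes were, 7 had an unadjusted p under 0.05, where 42.3% of all genes did, and DESeq2 also called 0.

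The libraries labelled resistant HT-29 differed from sensitive HT-29 in 7 called genes of the 10, where 39.4% of all genes were called. Under uracil they held 52.1, 50.5 and 51.6 TPM of ABCC2, 60.9, 56.5 and 60.1 TPM of ABCC3 and 2.80, 3.25 and 2.76 TPM of ABCG2. The respective means were 0.420, 212 and 62.9 TPM in sensitive HT-29 and 53.7, 44.8 and 2.87 TPM in sensitive HCT-116, so that these pumps lay nearer to HCT-116. The log2 fold changes against sensitive HT-29 were 7.51 for ABCC2, 1.09 for ABCC5, 1.70 for SLC29A1, -4.76 for ABCG2, -2.55 for ABCC3, -2.04 for ABCB1 and -1.13 for ABCC4. Transcript length as an offset ended the calls of ABCB1 (-1.72, adjusted p = 0.0104) and ABCC5 (0.95), and library size alone that of ABCC4 (-0.86). Line identity and resistance cannot be told apart in this comparison.

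Set against HCT-116, the same libraries differed in fewer transporter genes. Against sensitive HCT-116 only ABCB1 was called among the 10 genes (-5.19 ± 0.40, adjusted p = 7.38e-10), where 6.86% of all genes were called, and its counts were 7, 5 and 2. Against resistant HCT-116 only ABCC11 was called (1.16 ± 0.25, adjusted p = 0.00149), where 3.29% of all genes were called. That call was lost with transcript length as an offset (1.34, adjusted p = 0.0172), without resistant HCT-116 replicate 1 and without replicate 2 of the libraries labelled resistant HT-29 (0.95). SLC29A1 stood at 104, 100.1 and 104 TPM, above all sensitive and resistant HCT-116 libraries under uracil. By the fit to counts it was higher than in sensitive HCT-116 but had not changed against resistant HCT-116, so that the latter separation rests on TPM alone. Against resistant HCT-116, ABCC4 was lower and ABCC5 higher, both by too little to be called. ABCC4 lost its adjusted p in 1 of 12 alternatives and ABCC5 in 3 of 12.

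The same treatment was tested in resistant cells, where 5-FU changed none of the 10 genes. For these cells, 10 µM was below the dose in which the study kept them. By edgeR's quasi-likelihood test 0 of the 10 changed or were called in resistant DLD-1, resistant HCT-116 and the libraries labelled resistant HT-29, where 0.0138%, 0% and 0.00421% of all genes were called. An unadjusted p under 0.05 was found for 5, 1 and 0 of them, beside 18.5%, 8.17% and 5.39% of all genes, and DESeq2 called 0 in each. The conjugate pumps of resistant HCT-116 stayed near their uracil levels after 5-FU. ABCC3 had 56.9, 68.2 and 59.8 TPM under uracil and 66.0, 74.3 and 75.9 TPM after 5-FU, which overlapped, and ABCC2 had 46.8, 49.9 and 48.0 TPM after 5-FU.

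The difference between the responses of resistant and sensitive cells was tested within each line. In HCT-116, the difference, resistant minus sensitive, was -1.44 ± 0.11, adjusted p = 3.47e-10, for ABCC3 and -1.04 ± 0.089, adjusted p = 4.58e-09, for ABCC2. In DLD-1 it was 0.49 ± 0.050, adjusted p = 1.93e-07, for SLC29A1 and 0.51 ± 0.069, adjusted p = 7.45e-06, for SLC29A2. These genes were picked out by their response in the sensitive libraries, which also enter the difference, so that a difference was favoured in advance. By the adjusted p alone, 5-FU changed 0.385% of all genes in resistant DLD-1 and 0% in resistant HCT-116. The differences are therefore not particular to these genes. By the adjusted p alone, 2 of the 10 genes differed in DLD-1, where 22.8% of all genes did, 4 in HCT-116, where 29.7% did, and 5 in HT-29 as labelled, where 35.4% did. In HT-29 these were ABCB1, ABCC1, ABCC4, ABCG2 and SLC29A2, with arms that carried markers of different lines. ABCB1 (-2.63, adjusted p = 0.00716) missed the threshold in 6 of 12 fits that left out a library, up to 0.0624 without replicate 1 of the uracil libraries labelled resistant, with differences from -3.72 to -2.09, and with transcript length as an offset (-1.53, adjusted p = 0.218).

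Irradiation after 5-FU was tested against 5-FU alone. In the sensitive parents, 0 of the 10 genes changed or were called by edgeR's quasi-likelihood test, where 0.00842% of all genes were called in HT-29, 0% in HCT-116 and 0% in DLD-1. An unadjusted p under 0.05 was found for 0 of the 10 in each parent, and DESeq2 called 0. Of all genes, 3.32% in HT-29, 8.45% in HCT-116 and 11.2% in DLD-1 had an unadjusted p under 0.05. ABCG2 in HT-29 was at 32.0, 30.9 and 31.0 TPM and ABCC3 in HCT-116 at 108, 130.0 and 128 TPM after 5-FU+IR. These levels stayed on the side of 5-FU alone, apart from the uracil libraries.

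In resistant cells, small changes came with irradiation, and 0 of the 10 genes were called by edgeR's quasi-likelihood test or by DESeq2. In resistant DLD-1 none changed, where 0.142% of all genes were called, and 3 had an unadjusted p under 0.05, where 21.6% of all genes did. In resistant HCT-116 ABCC2 rose by 0.31 ± 0.063, adjusted p = 0.00411, to 51.6, 58.5 and 64.4 TPM, where 0.0261% of all genes were called. That rise missed the adjusted p of 0.01 in 5 of 6 fits that left out a library, up to 0.0452. Of the 10 genes, 4 had an unadjusted p under 0.05 there, where 18.7% of all genes did. In the libraries labelled resistant HT-29, ABCC2 also rose, from 47.1, 50.3 and 54.3 to 65.04, 72.7 and 70.8 TPM (0.43 ± 0.039, adjusted p = 1.60e-08), where 0.434% of all genes were called. Of the 10 genes, 5 had an unadjusted p under 0.05 in these libraries, where 32.5% of all genes did. ABCC3 rose there by 0.29 and ABCC5 by 0.28 on the log2 scale, and SLC29A2 fell by 0.25.

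Other genes of the transporter families were counted in the same fits. Of 20 other ABCB, ABCC and ABCG genes, 18 were tested in HT-29 and 16 in each other line. After 5-FU in sensitive cells, 4 were called higher and 1 lower in HT-29, 1 lower in HCT-116 and 1 higher in DLD-1, where 12.2%, 8.15% and 4.02% of all genes were called in either direction. The lower one in HT-29 was CFTR, the chloride channel of the family, which went from 14.8 ± 1.4 to 6.25 ± 0.70 TPM (-1.71 ± 0.10, adjusted p = 8.85e-14). Higher there were TAP1, a peptide carrier of antigen presentation, from 1.90 ± 0.23 to 4.84 ± 0.27 TPM (1.15 ± 0.076, adjusted p = 1.13e-12), and ABCC8, the sulfonylurea receptor, from 0.413 ± 0.18 to 1.46 ± 0.23 TPM (1.499 ± 0.24, adjusted p = 4.95e-06). In HCT-116, ABCB10, a mitochondrial carrier, went from 18.05 ± 0.63 to 9.39 ± 0.45 TPM (-1.01 ± 0.057, adjusted p = 1.44e-12), a call lost under library size alone (-0.93), with transcript length as an offset (-0.96) and with only the groups compared (-0.998). CFTR was also lower in resistant than in sensitive DLD-1, at 2.69 ± 1.2 against 10.4 ± 0.56 TPM (-2.32 ± 0.16, adjusted p = 3.79e-10, and -2.77 without resistant replicate 1).

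The ABCA and ABCD genes, which carry mainly lipids, had 3 of 15 tested called higher after 5-FU in sensitive HT-29, 3 of 14 in DLD-1 and 1 of 14 in HCT-116, and 0 lower in any of these, where 12.2%, 4.02% and 8.15% of all genes were called. The median log2 fold changes of this list were, in this order, 0.49, 0.05 and 0.40, beside 0.03, 0.01 and 0.03 for all genes. ABCA12, a lipid carrier of the skin barrier, rose in HCT-116 from 0.406 ± 0.088 to 1.76 ± 0.17 TPM (2.39 ± 0.15, adjusted p = 1.38e-11). ABCA5 rose in HT-29 from 1.30 ± 0.31 to 5.27 ± 0.28 TPM (2.02 ± 0.096, adjusted p = 1.71e-15). Between resistant and sensitive cells, ABCA5 was higher in DLD-1 (1.02 ± 0.11, adjusted p = 3.40e-07) and lower in HCT-116 (-1.03 ± 0.096, adjusted p = 7.00e-09), and ABCA12 was lower in DLD-1 (-2.33 ± 0.15, adjusted p = 8.54e-11, and -2.65 without resistant replicate 1). Both ABCA5 calls lay at the 2-fold threshold and were lost in 5 of 13 alternatives in DLD-1, down to 0.87 without resistant replicate 1, and in 4 of 12 in HCT-116, library size alone giving -0.97.

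Among 7 other nucleoside and nucleobase carriers, 1 was called after 5-FU in the sensitive parents. Of all genes, 12.2% were called in HT-29, 8.15% in HCT-116 and 4.02% in DLD-1. SLC28A3 (CNT3), a concentrative nucleoside transporter, went in HT-29 from 11.6 ± 0.46 to 5.79 ± 0.73 TPM (-1.01 ± 0.093, adjusted p = 1.46e-09). This lay at the 2-fold threshold and passed under neither library size alone (-0.85) nor 5 of the 6 fits that left out a library. SLC28A3 was higher in resistant than in sensitive DLD-1, at 1.18 ± 0.15 against 0.126 ± 0.0071 TPM (2.81 ± 0.21, adjusted p = 9.66e-10, and 2.87 without resistant replicate 1). SLC29A4, an equilibrative transporter also known for monoamines, was higher there as well, at 7.16 ± 2.1 against 2.66 ± 0.25 TPM (1.43 ± 0.12, adjusted p = 5.39e-09, and 1.21 without it). Resistant HCT-116 had 0 of the 4 tested called by edgeR's quasi-likelihood test, where 11% of all genes were called. An unadjusted p under 0.05 was found for 2 of these 4, beside 56.3% of all genes.

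Of 15 transcription factors and regulators of such factors, known to act on pump genes, 0 were called after 5-FU in sensitive DLD-1. There 11 of the 13 tested had an unadjusted p under 0.05. Of all genes 4.02% were called there and 50.7% had an unadjusted p under 0.05. In HCT-116 2 of the 15 genes were called higher, where 8.15% of all genes were called, and in HT-29 1 higher and 1 lower, where 12.2% were. NR1I3 (CAR), a xenobiotic receptor, rose in HCT-116 from 0.750 ± 0.047 to 1.53 ± 0.21 TPM (1.02 ± 0.17, adjusted p = 2.64e-05), which fell under 2-fold in 3 of 6 fits that left out a library, to 0.98. EPAS1, a hypoxia-inducible factor, rose in HT-29 from 10.2 ± 0.77 to 30.5 ± 0.93 TPM (1.28 ± 0.059, adjusted p = 7.30e-16). Of 7 membrane scaffolds, PDZK1, which binds apical transporters, rose in DLD-1 with 5-FU, from 2.11 ± 0.43 to 4.96 ± 0.69 TPM (1.23 ± 0.11, adjusted p = 1.10e-08). It was also higher in resistant than in sensitive DLD-1, at 11.7 ± 1.5 TPM (2.64 ± 0.11, adjusted p = 5.45e-14, and 2.73 without resistant replicate 1). CAV1, the structural protein of caveolae, rose in HT-29 after 5-FU from 2.76 ± 0.35 to 23.5 ± 0.76 TPM (2.94 ± 0.085, adjusted p = 9.56e-20), and in resistant HCT-116 it was at 336 ± 17 against 106 ± 4.7 TPM (1.59 ± 0.058, adjusted p = 1.63e-15).

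The genes with the most similar pattern were sought by Pearson's r of log2(TPM + 1) over the 18 condition means among 21996 genes, as a description. For ABCB1 the closest were AOAH (r = 0.994) and ISM1 (0.993). For ABCG2 they were SLC28A3 (r = 0.991) and RARRES1 (0.986), the former being the nucleoside transporter named above. ABCC2 was closest to MST1L (r = 0.993) and MRPS23 (0.993), and ABCC3 to HSPG2 (r = 0.979) and UGT1A7 (0.972). ABCC5 was closest to ABHD6 (r = 0.976) and SIRT6 (0.974), ABCC1 to TNFSF4 (r = 0.966) and SNX18P3 (0.963) and ABCC4 to AL078644.2 (r = 0.914) and FBXL17 (0.904). Of the nucleoside transporters, SLC29A1 was closest to CBX7 (r = 0.983) and EOGT (0.982) and SLC29A2 to RN7SL288P (r = 0.897) and AC133550.3 (0.888). Some of the genes named as closest were low in every condition. The highest condition mean was 1.02 TPM for TNFSF4, 1.58 for UGT1A7, 1.59 for AL078644.2, 1.405 for AC133550.3 and 2.12 for RN7SL288P. The conditions share cell lines, so that such likeness follows differences between lines as well as treatments.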

How the data were processed

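RNA-sequencing libraries from 3 CRC lines in 18 conditions of 3 replicates, described by the study as biological triplicates, were analysed from the tables of the series; p-values measure the spread between these samples. The authors trimmed reads with Trimmomatic 0.36, checked them with FastQC 0.11.8 and quantified transcripts with kallisto 0.44.0 against Ensembl transcripts of GRCh38. The deposited gene tables hold the authors' estimated counts, summed over transcripts and not normalized, and the deposited TPM are normalized by the authors for length and library size. Estimated counts assign shared reads by likelihood, so that near-identical transcripts and starts can trade reads. Columns left unused numbered 0.

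Estimated counts were rounded, filtered with filterByExpr, TMM-normalized and fitted with edgeR 4.0.16 (R 4.3.3, limma 3.58.1) by the quasi-likelihood test, with the 18 libraries of a line, or the 18 uracil libraries, sharing an estimate of the spread. P-values were adjusted over all genes tested by Benjamini-Hochberg. The fit of 5-FU responses between lines used the sensitive uracil and 5-FU libraries and was added after the data were seen. Estimated counts differ from whole reads, and DESeq2 1.42.0, the tool of the authors, served as an alternative, as did no filter on low counts, library size alone, only the groups compared, a replicate block, each library left out, a log2 threshold of 2, the adjusted p alone, the deepest library thinned and transcript length as an offset (added after the data were seen). The script was tested on simulated data. Line markers were genes with at least 10 TPM in a sensitive parent and at most 0.1 TPM in each other.

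The members and gene lists were chosen with earlier results of these data known. From the other lists, at most 3 called genes per comparison with the largest log2 fold change and at least 1 TPM in a group are named, and for each member with at least 1 TPM in any condition the 2 most alike genes. Deviations of same-numbered replicates correlated by at most 0.0740, so that no pairing was used. Tables and figures were made with Python 3.11.15, pandas 2.3.3, numpy 2.4.6 and matplotlib 3.10.9. The pseudocount was 1 TPM for figures and likeness. Irradiation doses were not analysed here.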

Additional observations from a re-analysis of the deposited data

Results flagged for a closer look

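The results here were singled out because the 5-FU response differed between a pair of groups by a test of the difference itself, at an adjusted p of at most 0.01 with edgeR's quasi-likelihood test. Values are differences of log2 fold changes.

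Within lines, resistant minus sensitive, the difference in DLD-1 was 0.49 for SLC29A1 and 0.51 for SLC29A2, from responses of -0.45 and -0.36 in sensitive cells. In HCT-116 it was -1.04 for ABCC2, -1.44 for ABCC3, -0.18 for ABCC4 (adjusted p = 0.00898) and -0.30 for SLC29A2 (adjusted p = 0.00688). The latter pair lay close to the threshold, and ABCC4 lost its side of it in 12 of 12 fits that left out a library and SLC29A2 in 8 of 12. In HT-29 as labelled it was -2.63 for ABCB1 (adjusted p = 0.00716, missing the threshold in 6 of 12 fits that left out a library), 0.32 for ABCC1, 0.85 for ABCC4, 1.44 for ABCG2 and 0.34 for SLC29A2, with a resistant arm that carried HCT-116 markers.

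Between sensitive parents, HCT-116 minus DLD-1 was 0.36 for ABCC1, 1.23 for ABCC2, 1.49 for ABCC3, 0.20 for SLC29A1 (adjusted p = 0.00961, missing the threshold in 11 of 12 fits that left out a library) and 0.62 for SLC29A2. HT-29 minus DLD-1 was 1.64 for ABCB1, -0.78 for ABCC4, -1.21 for ABCG2 and 0.51 for SLC29A1. HT-29 minus HCT-116 was 1.91 for ABCB1, -0.49 for ABCC1, -0.86 for ABCC2, -1.62 for ABCC3, -0.94 for ABCC4, -1.11 for ABCG2, 0.31 for SLC29A1 and -0.57 for SLC29A2. ABCB1 missed the threshold in 1 of 18 alternatives for HT-29 minus DLD-1. For HT-29 minus HCT-116, ABCB1 and SLC29A1 each missed it in 1 of 18 and ABCC2 in 2 of 18. Among the latter was 1 fit that left out a library (adjusted p = 0.0187). These comparisons share libraries, since each response enters more than 1 of them.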

How the results depend on the processing

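Over the 10 genes and the other genes named, 135 differences were recomputed under 1818 alternatives in all. Of these, 1720 kept their direction and side of the threshold, 89 fell short of it, 9 newly passed it and 0 changed direction. Outside the differences of responses, that threshold was the call, which takes the adjusted p and the fold change together. A change too small to be called was therefore counted as kept even where it lost its adjusted p. ABCC5 after 5-FU in sensitive HCT-116 lost it in 7 of 12 alternatives, and ABCB1 in resistant against sensitive DLD-1 in 7 of 13. For the libraries labelled resistant HT-29 against sensitive HCT-116, ABCC1 lost it in 8 of 12 and ABCC2 in 5 of 12. The counts of the 10 genes called moved with the rule. By the adjusted p alone the counts were 2 after 5-FU in sensitive DLD-1, 7 in sensitive HCT-116 and 5 in sensitive HT-29, beside 34.7%, 42% and 47% of all genes by this rule, and 5 in resistant against sensitive DLD-1 and 7 in HCT-116, beside 24.6% and 41%. They were 1 and 4 for irradiation in resistant HCT-116 and HT-29 as labelled (2.57% and 14.4% of all genes), 7 for DLD-1 against HCT-116 (60.2%), and 6 and 3 for the libraries labelled resistant HT-29 against sensitive and resistant HCT-116 (27.6% and 16.8%). With a log2 threshold of 2, they were 0 after 5-FU in sensitive HCT-116 and in sensitive HT-29, 1 and 4 for resistance in HCT-116 and HT-29 as labelled, 4 for HT-29 against HCT-116, 3 for DLD-1 against HT-29 and 0 for the libraries labelled resistant HT-29 against resistant HCT-116. The share of all genes at this stricter threshold was not counted, so that whether these counts are high or low among all genes cannot be read.

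Library size alone gave 2 after 5-FU in sensitive HCT-116 and put the all-gene median of log2 fold changes at 0.19, 0.12 and 0.11 after 5-FU in sensitive HT-29, DLD-1 and HCT-116 and at 0.26 for resistance in HT-29 as labelled. It changed the direction of 0 of the called genes among the 10. Transcript length as an offset, added after the data were seen, gave 2 after 5-FU in sensitive HCT-116, 1 in sensitive HT-29, 3 for the difference of responses in HT-29 as labelled, 0 for the libraries labelled resistant HT-29 against resistant HCT-116 and 5 for the response of HT-29 minus HCT-116. The causes were not tested.

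When each library was left out, counts ranged from 1 to 2 after 5-FU in sensitive HCT-116 (2 without uracil replicate 2), from 2 to 4 for the difference of responses in HCT-116 (2 in 8 of 12 fits), and from 0 to 1 for the libraries labelled resistant HT-29 against resistant HCT-116. With replicate numbers as a block, SLC29A1 joined the difference of responses in HCT-116, which counted 5 genes against 4 without it, and for HCT-116 minus DLD-1 SLC29A1 lost its side of the threshold (adjusted p = 0.0160) and ABCC5 passed it. Same-numbered libraries correlated weakly, as 0 of 45 correlations in each of 4 sets of libraries exceeded 0.1. In DLD-1 4 of 18 libraries correlated best with their own number, in HCT-116 12 of 18 and in HT-29 8 of 18. A cutoff of 0.1 cannot exclude a small replicate effect, as the highest correlation was 0.0740. The block changed no other call among the 10 genes. Depth limits ABCC11 in all groups and ABCB1 wherever it had 12 counts or fewer.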
